A study of Mus musculus with 4 samples.

Results

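Of 5775 peaks in the wild-type SHP list, 382 (6.61%, 95% exact Clopper-Pearson interval 5.99 to 7.29) lay outside protein-coding genes, and these 382 peaks are described here. A peak was taken where its summit, the base of highest signal, fell outside every protein-coding gene of the mouse mm10 RefSeq annotation and more than 1 kb from the nearest end of such a gene. The choice used position alone, and no measured value. Of the other peaks, 4044 had their summit no more than 1 kb from where a protein-coding gene starts or stops and 1349 lay elsewhere inside such a gene. The study mapped SHP by chromatin immunoprecipitation and sequencing (ChIP-seq) with an SHP antibody in jejunum and ileum, the middle and last stretches of the small intestine. It used wild-type mice of strain C57BL/6 and SHP-knockout mice labelled with the same strain background, all 8 to 12 weeks old. All mice were fasted for 12 h and then given normal chow for 4 h, so every value comes from the refed state. For each genotype, 3 sets of immunoprecipitated and input DNA were made, with tissue of 3 mice pooled in each set, but a single peak list was used per genotype. The sources used here do not say how the knockout allele was made or whether it is restricted to some cells.

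SHP (small heterodimer partner, gene Nr0b2) is an orphan nuclear receptor without a DNA-binding domain. It reaches chromatin through other transcription factors, among them nuclear receptors, and mostly lowers the activity of the genes they control. Bile acids returning to the ileum after a meal activate the receptor FXR, which switches on Nr0b2. DNA outside protein-coding genes holds enhancers, which can act on genes far away, and genes for RNAs that are not translated. Among these are long noncoding RNAs (lncRNAs), transfer RNAs (tRNAs, which carry amino acids to the ribosome), small nucleolar RNAs (snoRNAs, which guide chemical marks on ribosomal RNA) and microRNAs (short RNAs that lower the output of messenger RNAs).

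Sequence was at hand for the starts of lncRNA genes and for microRNAs, and the windows and mature microRNAs shown next are those in which, or beside which, a member summit lay. RefSeq promoter windows (GRCm38.p6, the coordinates of mm10) run from 250 bases before to 50 bases after a gene start, 300 bases in all. Of 32851 such windows, 20 held a member summit, and these 20 belonged to lncRNA genes. Windows of protein-coding genes could not hold a member summit, because the choice of members leaves out summits within 1 kb of such a gene. Printed are the 3 of these with the highest enrichment value (the authors' signal per peak), the window of Malat1, an abundant nuclear lncRNA, a window that also holds a tRNA gene, and the window with most matches to an ETS word. Each runs 5′ to 3′ along the strand of its gene. Capitals mark a match on either strand to any of 7 words searched, and the reverse strand of a word reads as its complement. The windows other than those of Gm41874, Snhg8 and 2810410L24Rik were chosen after their values were seen.
Gm41874 (chr19:57404215-57404514, plus strand): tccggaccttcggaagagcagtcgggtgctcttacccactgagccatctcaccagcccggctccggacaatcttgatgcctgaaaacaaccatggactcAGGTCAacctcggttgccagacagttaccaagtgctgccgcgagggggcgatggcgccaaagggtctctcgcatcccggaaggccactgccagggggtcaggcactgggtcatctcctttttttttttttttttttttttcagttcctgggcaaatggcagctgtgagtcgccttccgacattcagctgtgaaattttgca
Snhg8 (chr3:123508287-123508586, minus strand): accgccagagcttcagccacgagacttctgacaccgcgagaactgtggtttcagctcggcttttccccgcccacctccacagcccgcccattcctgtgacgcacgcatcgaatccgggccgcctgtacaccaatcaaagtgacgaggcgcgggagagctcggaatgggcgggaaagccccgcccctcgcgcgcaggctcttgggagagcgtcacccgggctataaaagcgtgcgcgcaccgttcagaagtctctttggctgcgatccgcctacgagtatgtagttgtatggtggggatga
2810410L24Rik (chr11:120189807-120190106, minus strand): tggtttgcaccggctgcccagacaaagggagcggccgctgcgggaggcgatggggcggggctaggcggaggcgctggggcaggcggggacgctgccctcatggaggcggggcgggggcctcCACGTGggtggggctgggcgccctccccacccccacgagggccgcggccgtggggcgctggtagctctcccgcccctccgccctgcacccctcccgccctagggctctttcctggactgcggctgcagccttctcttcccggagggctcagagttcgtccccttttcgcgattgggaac
Malat1 (chr19:5802623-5802922, minus strand): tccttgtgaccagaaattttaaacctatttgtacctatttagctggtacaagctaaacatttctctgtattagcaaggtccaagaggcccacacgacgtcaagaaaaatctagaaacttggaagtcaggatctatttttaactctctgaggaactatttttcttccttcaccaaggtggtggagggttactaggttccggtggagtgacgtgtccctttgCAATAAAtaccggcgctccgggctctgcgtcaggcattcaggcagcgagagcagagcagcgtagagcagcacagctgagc
Gm38989 (chr7:35234765-35235064, minus strand): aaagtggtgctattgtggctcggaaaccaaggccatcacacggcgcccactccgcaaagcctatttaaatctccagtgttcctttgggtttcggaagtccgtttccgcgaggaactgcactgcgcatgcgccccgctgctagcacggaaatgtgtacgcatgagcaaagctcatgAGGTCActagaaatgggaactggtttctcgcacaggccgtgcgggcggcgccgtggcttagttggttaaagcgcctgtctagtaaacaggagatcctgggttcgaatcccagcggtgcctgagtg
Gm2885 (chr17:6827967-6828266, minus strand): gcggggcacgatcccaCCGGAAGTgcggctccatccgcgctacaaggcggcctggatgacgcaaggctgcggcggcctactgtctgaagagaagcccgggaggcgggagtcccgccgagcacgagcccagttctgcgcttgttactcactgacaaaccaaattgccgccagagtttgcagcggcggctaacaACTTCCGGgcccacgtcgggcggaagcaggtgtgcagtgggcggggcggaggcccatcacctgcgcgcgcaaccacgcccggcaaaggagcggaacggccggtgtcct

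The 20 windows were rich in G and C. Their median GC content was 67.5% (quartiles 60.8 and 74), beside 48.3% in all 11588 lncRNA windows and 52.7% in all windows. The dinucleotide CG, which is dense in CpG islands, occurred a median of 27 times per window, beside 4 in all lncRNA windows and 7 in all windows. The window of Malat1 had the lowest GC content of the 20, 47%, with 10 CG, and that of Gm1976 had 8 CG at a GC content of 56%. The summit lay 126 bp before the annotated start of Gm41874, 2 bp before that of Snhg8, at the start of 2810410L24Rik, 20 bp past the start of Malat1, 48 bp before the start of Gm38989 and 247 bp before that of Gm2885. Nuclear receptor half-sites read AGGTCA, which occurred in 3 of the 20 windows (15%) and in 16.3% of all windows. The longer TCAAGGTCA, which contains AGGTCA and is read by LRH-1, was in 0 of the 20 and in 0.423% of all. TGANTCA, read by the AP-1 factors Fos and Jun, was in 1 of the 20 (5%) and in 7.81% of all. CACGTG, read by clock and MiT/TFE factors, was in 2 (10%) and 7.15%. AGATAA, read by GATA factors, was in 0 of the 20 and 11.2% of all, and TTTATTG, read by CDX factors, was in 1 (5%) and 4.60%. CCGGAAGT, read by ETS factors, was in 3 (15%), against 3.89% of all windows and 1.58% of lncRNA windows. These 20 windows are few, and a match only describes their letters. The sequence of the remaining member peaks was not used here.

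In median enrichment value the peaks outside protein-coding genes were much like the rest of the list. Their median −log10 p was somewhat lower, and in width they were narrower. The enrichment value had a median of 5.64 (quartiles 4.82 and 6.39, range 2.47 to 14.5) in the 382 peaks and 5.66 (quartiles 4.93 and 6.46) in the 5393 other peaks. Peaks at gene ends had a median of 5.64 and peaks inside genes 5.82. The deposited −log10 p, a measure of how far a peak stood above background, had a median of 14.2 in the members and 14.9 in the other peaks. It was 15.3 at gene ends and 14.2 inside genes. The median width was 718 bp in the members (quartiles 466 and 1047) and 996 bp in the other peaks (quartiles 733 and 1349), with 997 bp at gene ends and 995 bp inside genes. Of the members, 188 (49.2%, interval 44.1 to 54.3) were at or under 713 bp, the lower quartile of the whole list, and so were 1258 (23.3%, interval 22.2 to 24.5) of the other peaks. Among peaks whose −log10 p reached the median of the list the members were still narrower, with medians of 719 bp in 157 members and 1014.5 bp in 2758 others. With 1 list per genotype there is no spread between replicates, so no difference was tested, and the intervals cover counting error only. Read depth was unknown.

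**Figure D1:**
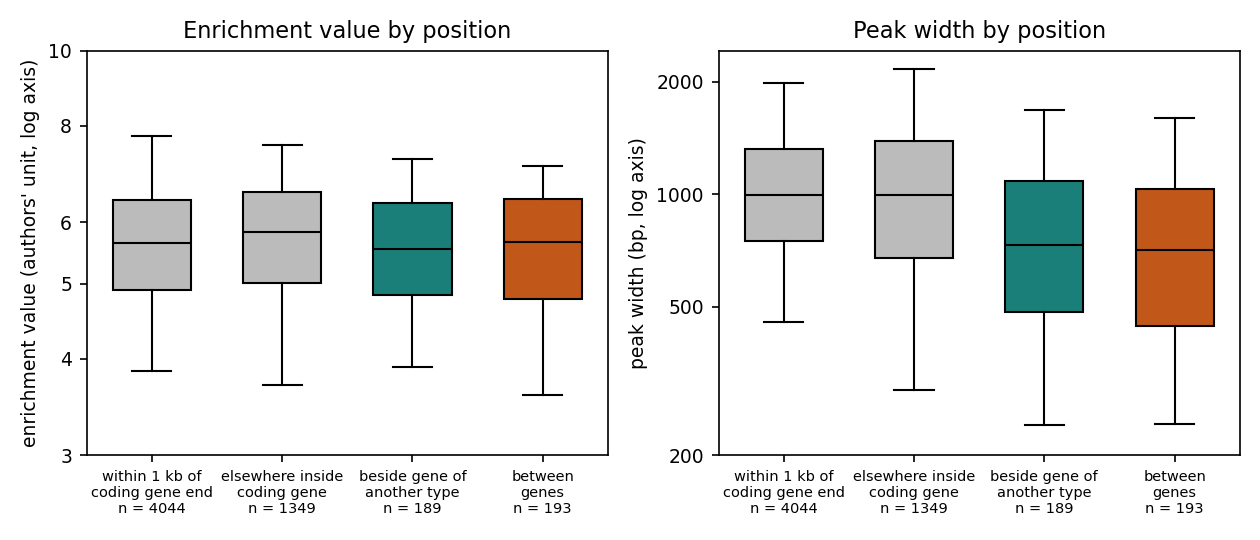
Enrichment value (left, the authors' unit) and peak width in bp (right) of wild-type peaks in 4 position classes, both on log axes. The boxes show quartiles and median and the whiskers reach the 5th and 95th percentiles of peaks, not replicates. The medians of enrichment lie close together, from 5.54 to 5.82, whereas both classes outside protein-coding genes (733 and 711 bp) are narrower than the classes at and inside genes (997 and 995 bp).

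Members made up 2 of the 20 highest enrichment values in the list, 6 of the highest 100 and 15 of the highest 500, that is 10%, 6% and 3%. The last share lies below their 6.61% of the whole list (interval 1.69 to 4.90), and the others are close to it or rest on few peaks. At or above the upper quartile of the list, 6.46, stood 88 members (23.0%) and 1359 other peaks (25.2%). Values under 4 occurred in 39 members (10.2%, interval 7.36 to 13.7) and 362 other peaks (6.71%, interval 6.06 to 7.41). Of the members, 325 matched some other peak of the list exactly in both enrichment value and −log10 p, so ranks among them contain many ties.

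The strongest member lay upstream of Irx3, a homeobox transcription factor. Its peak, chr8:91820296-91820735, had an enrichment value of 14.5, which ranked 2 in the whole list, and a −log10 p of 43.8. The summit was 18941 bp upstream of Irx3 and inside the lncRNA genes Irx3os and Gm39223. Another member, also inside Irx3os, was 3989 bp upstream of Irx3 with an enrichment value of 7.29. Next came a peak of 215 bp at chr13:21160705-21160919, with an enrichment value of 10.8. It covered the tRNA gene n-TEctc11, and its nearest protein-coding gene was the odorant receptor Olfr1368, 17757 bp away. The third lay 203005 bp from Gata6, a transcription factor of the gut endoderm, at chr18:11288555-11288768, with 9.87. The fourth lay 110176 bp from Ogfrl1 and had 9.44. Then followed a peak at the lncRNA gene Gm40371 near Gm40369, with 9.07, and the peak before the start of Gm41874 near Fam160b1, with 8.45.

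Below these values came 14 further members that complete the highest 20. Among them were Prl2c3, a placental hormone of the prolactin family, with an enrichment value of 8.16 at 60027 bp, and Gm40363 with 8.05. Zmiz1, a transcriptional cofactor, had a member with 7.89 that was 79568 bp upstream and inside the lncRNA gene Zmiz1os1. Spen, a large repressor protein that also binds RNA, had 7.59 inside B330016D10Rik, 8119 bp upstream. Bcl11b, a transcription factor of T cells, had 7.42 at 1178 bp upstream, and a weaker neighbour of 4.50 stood 751 bp from that summit. Plekho2 had 7.35, the DNA repair gene Ercc1 7.31, the tetraspanin gene Cd9 7.26, Gm17019 7.21 and Gm46353 7.18. Shq1, at 7.18, held the same value as Gm46353. The nearest gene is given as a landmark only. Whether a peak acts on it was not measured.

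The distance to the nearest protein-coding gene varied widely. Its median was 12426.5 bp (quartiles 4395 and 32728.5, range 1048 to 277761). From 1 to 5 kb away lay 104 members (27.2%), from 5 to 20 kb 131 (34.3%), from 20 to 100 kb 126 (33.0%) and over 100 kb 21 (5.5%). The median enrichment value was 5.78, 5.41, 5.76 and 5.54 in these distance classes, with no steady order. Where the strand of the nearest gene was given, 144 of 290 members (49.7%, interval 43.8 to 55.6) were upstream of its start and 146 beyond its end, and for 92 members the side was not given. Members thus lay about as often before the start as past the end of the nearest gene, also among those 1 to 5 kb away (41 of 79 upstream, 51.9%).

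**Figure D2:**
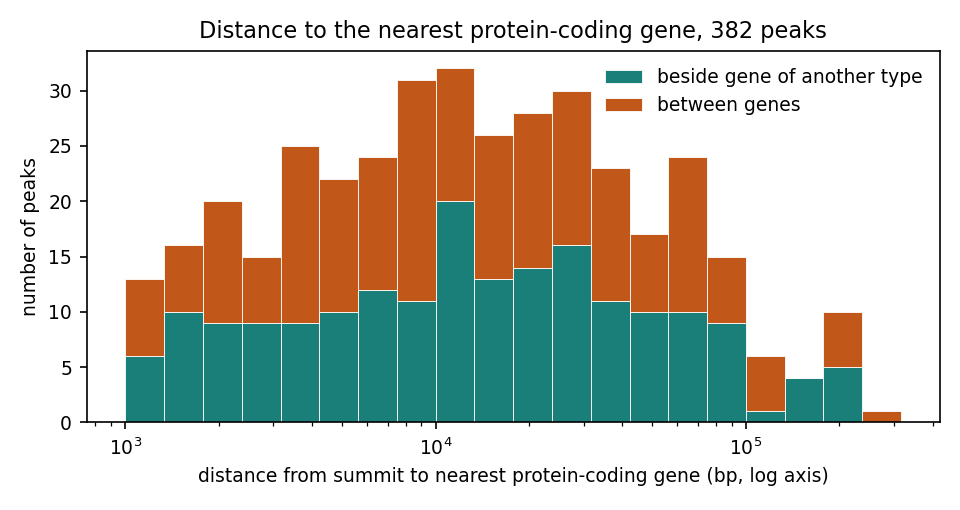
Number of members by distance from summit to the nearest protein-coding gene (bp, log axis), stacked by whether the summit was inside or within 1 kb of a gene of another type (teal, 189 peaks) or between genes (orange, 193 peaks). Members beside a gene of another type run from 1048 to 224201 bp and members between genes from 1083 to 277761 bp.

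The member farthest from any protein-coding gene, 277761 bp from Gm10573, had an enrichment value of 4.48. Med13l, a subunit of the Mediator kinase module, was 228292 bp from its member (5.54). A pair of weak peaks lay 224690 and 221947 bp from the galanin receptor gene Galr1 (3.06 and 3.59). The other distant members were near Pcmtd1 (224201 bp, 6.36), Gata6 (described above), Asap2 (190125 bp, 7.13), Samd9l (189025 bp, 5.17), Foxl1 (185498 bp, 6.38) and Mkln1 (182082 bp, 6.03, inside the lncRNA gene Lncpint). Their values ran from 3.06 to 9.87, and distance alone did not mark out the weak ones. At the 1 kb limit, the members just inside were near Tcp10c (1048 bp, 5.84), Tmem44 (1083 bp, 6.4), Bhlhe40 (1112 bp, 4.17), Tex2 (1138 bp, 5.94) and Ankrd13b (1158 bp, 5.91). The peaks just outside the set were near Tle3 (960 bp, 5.88), 1600014C23Rik (956 bp, 6.06), Atg2a (955 bp, 4.52), Per1 (948 bp, 6.30) and Zbtb7b (930 bp, 7.66). Values on the 2 sides of the limit overlapped.

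Many members accompanied a peak at the end of the same gene. For 134 of 382 (35.1%, interval 30.3 to 40.1) the nearest protein-coding gene also had a wild-type summit within 1 kb of one of its ends. Of these 134, 13 form a single group near Mid1 on the X chromosome, described further on. Counted by gene, this held for 103 of the 323 distinct nearest genes (31.9%, interval 26.8 to 37.3), beside 4526 of all 21887 protein-coding genes (20.7%). The median flanking space, the free distance to the neighbouring protein-coding genes summed over both sides, was 112 kb for the 323 genes and 38.9 kb for all. The part of flanking space in these shares was not tested. Another summit of any class lay within 10 kb of 113 members (29.6%), and the median distance from a member to the nearest other summit was 33776 bp.

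Annotated genes that are not protein-coding, pseudogenes included, lay at 189 members (49.5%, interval 44.4 to 54.6), either around the summit or within 1 kb, and 193 members lay between genes. Without pseudogenes the count was 169 (44.2%). Enrichment was close in both kinds, with medians of 5.54 beside such genes and 5.66 between genes, and so was width (733 and 711 bp). Most of the 189 were lncRNA genes, with 145 members inside or within 1 kb of one (38.0% of 382, interval 33.1 to 43.0), 119 of them inside. tRNA genes followed with 16 members within 100 bp. Within 1 kb, pseudogenes had 20, snoRNA and small nuclear RNA genes, counted together, 8, and microRNA genes 8. These counts overlap, since genes of different types can lie together. The annotation held 28056 genes of other types. How often the other wild-type peaks or intergenic DNA lay at such genes was not counted, so these shares have no background beside them.

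Some members lay close to the start of an lncRNA gene. Of the 372 members on chromosomes for which starts were given, 66 (17.7%, interval 14 to 22.0) lay within 1 kb of an lncRNA start, 38 of them within 250 bp. The median distance of the 66 was 172 bp. The share of the other wild-type peaks near such a start was not counted. Before the start lay 22, at the start 1 and after the start 43. The highest were at Gm40371 (9.07, 70 bp past the start), Gm41874 (8.45), Snhg12 (8.0, 153 bp past), Zmiz1os1 (7.89, 205 bp past) and B330016D10Rik (7.59, 601 bp past). The 66 had a median enrichment value of 5.52 and a median width of 853.5 bp, beside 5.64 and 718 bp in all 382.

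**Figure D3:**
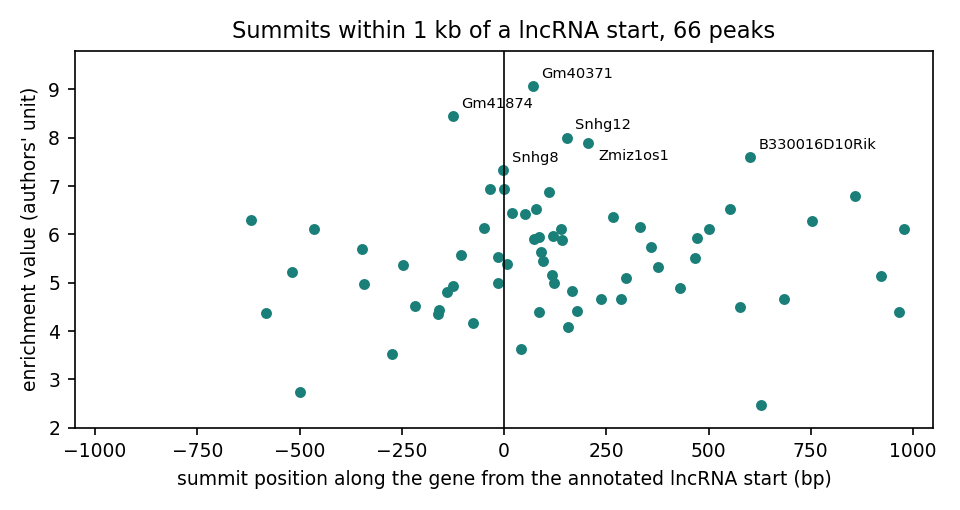
Enrichment value (authors' unit) of the 66 members within 1 kb of an annotated lncRNA start against the position of the summit along the gene (bp, 0 is the start, positive values lie inside the gene). The points are densest around 0, with 38 within 250 bp, and 43 of 66 lie past the start.

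Among the lncRNA genes were several hosts of snoRNAs, whose introns carry the snoRNAs of the ribosome pathway. Enrichment values were 8.0 at Snhg12 (chr4:132308500-132309062), 7.33 at Snhg8 (chr3:123508029-123508987), 5.94 at Gm36220 with Snord104, 5.64 at Dancr, 5.46 at 2410006H16Rik with Snord49b and 4.09 at Snhg3. A further 2 of the 8 members near snoRNA or small nuclear RNA genes were at LOC115489839 (5.09) and Gm35239 with Gm23296 (4.83). At each of these 6 hosts the summit was close to the annotated start: 153 bp past it at Snhg12, 2 bp before it at Snhg8, and 86, 90, 95 and 156 bp past it at Gm36220, Dancr, 2410006H16Rik and Snhg3. The remaining members of the 15 highest at lncRNA genes were near Gm52861 (8.05), Irx3os (14.5 and 7.29), Gm32039 near Btg2 (7.24), Gm26510 near Tgif1 (7.15), 4933430H16Rik near Mex3b (7.08), Gm40277 near Babam2 (7.08), Gm10000 near Gsc (7.08) and Gm4681 near Oxgr1 (7.05).

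Some well-known noncoding genes are named here after their values were seen. Malat1 had a pair of members, with an enrichment value of 6.44 at its start and of 6.30 at 618 bp before it. Neat1, the lncRNA that builds nuclear paraspeckles, also had a pair, with values of 5.18 and 6.13. Mir22hg, the host of miR-22, had 6.12, 140 bp past its start, and a peak 1585 bp from Mir17, in the miR-17-92 cluster that promotes growth, had 6.63. Terc, the RNA template of telomerase, lay under a member with 5.04. Rn7s2, an RNA of the signal recognition particle, had 4.15 at 60 bp, and Scarna2, a guide RNA of Cajal bodies, 3.86 at 296 bp. These values fall on both sides of the median of 5.64.

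At tRNA genes the enrichment values ran from 3.63 to 10.8. The 16 members within 100 bp of one (4.19% of 382, interval 2.41 to 6.71) had a median enrichment value of 5.22, a median −log10 p of 16.6 and a median width of 691 bp, beside 5.64, 14.2 and 718 bp in all 382. The strongest was n-TEctc11 (10.8), followed by n-TIaat8 near Abt1 (6.93), n-TTcgt5 near Mrtfb (6.30), n-TLcag3 near Fcgr4 (6.15), n-TTagt9 near Wdr88 (6.12, in the window of Gm38989 printed above) and n-TPcgg2 near Rcsd1 (5.67). Then came n-TEctc10 (5.34), n-TRccg1 (5.25), n-TLtag1 (5.19), n-TPagg4 (4.93), n-TQttg6 (4.90), n-TEctc13 (4.81), n-TIaat6 (4.53), n-TNgtt14 (4.35), n-TWcca6 (3.99) and n-TTcgt3 (3.63). In 7 of the 16 the summit fell inside the tRNA gene itself.

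The tissue labelled SHP knockout was immunoprecipitated with the same antibody, and loss of SHP in it was not checked here. Its list held 7 peaks, and 2 of them shared bases with members: the one at n-TLtag1 (chr7:120835403-120836121, nearest gene Gm5737, enrichment value 5.19 in the wild-type list) and the one at n-TPagg4 (chr14:51064598-51065575, nearest gene Olfr750, 4.93). Both lay beside tRNA genes. Except for a peak inside Serinc3, the knockout summits lay 1258 to 26381 bp from the nearest protein-coding gene. They thus met the position rule used for the members, which 6.61% of wild-type peaks met. The overlap was 2 of 382 members (0.524%, interval 0.0635 to 1.88) and 2 of 7 knockout peaks (28.6%, interval 3.67 to 71.0). Overlap of the other wild-type peaks with the knockout list was not counted, so no share over the whole list stands beside it. The lists were filtered differently, the wild-type one at an irreproducible discovery rate of 0.05 and the knockout one by overlap, so the 380 members without a knockout peak cannot be read as bound by SHP from this comparison alone.

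Near microRNA genes the members were wide. The 8 members within 1 kb of one had widths from 949 to 3034 bp with a median of 1570 bp, beside 718 bp in all 382, and enrichment values from 4.19 to 6.87. The mature sequences that follow come from RefSeq (GRCm38.p6), with the seed, bases 2 to 8, in capitals. The seed is the stretch that pairs with target messenger RNAs. A single arm of each hairpin is shown, and the other arms at these peaks are left out. For Mir375 only the 5p arm was matched, and miR-203b, at the peak of Mir203, is left out. Which arm is in use was not measured.
mmu-miR-203-3p: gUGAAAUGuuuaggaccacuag
mmu-let-7i-5p: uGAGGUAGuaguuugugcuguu
mmu-miR-200c-3p: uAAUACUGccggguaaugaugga
mmu-miR-141-3p: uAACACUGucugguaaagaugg
mmu-miR-193a-3p: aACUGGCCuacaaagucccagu
mmu-miR-212-3p: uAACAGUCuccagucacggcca
mmu-miR-132-3p: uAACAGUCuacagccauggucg
mmu-miR-760-3p: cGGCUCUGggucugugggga
mmu-miR-375-5p: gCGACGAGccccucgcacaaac

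The highest of the 8 was at Mir203 (chr12:112129969-112131498, 6.87), a microRNA of epithelial differentiation, whose hairpin started 359 bp past the summit. Mir124a-3, best known from neurons, followed with 6.58. Mirlet7i (chr10:122985273-122986591), a member of the let-7 family that restrains growth, had 6.28. Mir375, expressed in hormone-secreting cells, had 5.82 with its summit 40 bp from the hairpin, and Mir760 had 5.48. Mir200c and Mir141 share a single peak (chr6:124716603-124719636) of 3034 bp and 5.40, near Phb2, and both hold epithelial cells in their epithelial state by lowering Zeb factors. Mir193a had 5.15. Mir212 and Mir132, which share the seed AACAGUC and also share a single peak (chr11:75172201-75173910), had 4.19. A mature sequence of Mir124a-3 was not matched. The other very wide members were near Cbx8, a Polycomb subunit (3259 bp, 4.66), Prkce (2365 bp, 5.22), Dleu2 near Kcnrg (2326 bp, 4.37) and Ppara (2300 bp, 3.49), so the 5 widest were all below the median enrichment of the members.

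Of the pseudogene members, the highest were at Gm20257 near Flacc1 (7.05), Gm20590 near Zfp825 (6.77), Gm6483 near 4930467E23Rik (6.66), Gm13241 with Vmn2r-ps16 near Zfp992 (6.58) and Gm5049 near Fasl (6.58). Pseudogenes are copies of other genes, so reads there can be shared with the parent gene, and how the authors placed such reads is not given in the sources used here. The 20 had a median enrichment value of 5.44, and 4 of them belong to the X group near Mid1.

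Genes with known roles in the gut were sought among the nearest genes through 16 lists, in which 534 of 544 distinct names matched. Of all 21887 protein-coding genes, 323 (1.48%) were nearest to a member. Immediate early genes, which respond within minutes to growth and feeding signals, stood at 8 of 31 (25.8%). Their members had enrichment values of 7.24 at Btg2, 6.32 at Ccn1, 6.32 at Junb, 5.71 at Fosl2, 5.64 at Egr3, 5.58 at Ier5, 5.49 at Fos and 4.85 at Zfp36l2. Of these genes, 6 also had a wild-type summit within 1 kb of an end, whereas Egr3 and Fos had none there. Such a summit occurred at 31.9% of the 323 nearest genes and at 20.7% of all protein-coding genes. For the 31 matched genes of this list the share was not counted. The members lay from 1516 bp (Egr3) to 40234 bp (Zfp36l2) away, those at Ccn1, Junb, Fosl2, Fos and Btg2 upstream and that at Ier5 beyond the end. The median flanking space of this list was 117 kb, beside 38.9 kb in all genes, and its part in the count was not tested.

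Transcription factors of the intestine followed with 4 of 32 genes (12.5%) and 7 members, and a median flanking space of 156 kb. Gata6 had members of 9.87 and, at 3927 bp inside the lncRNA gene Gata6os, 6.79. Foxa1, an endodermal pioneer factor, had 6.62, and Gata5 had 5.76. Hes1, the Notch target that steers cells towards the absorptive fate, had 3 members with 6.45, 5.75 and 4.76, at 2398, 56331 and 1338 bp. Stem and cycling genes gave 2 of 22 (9.09%), Ccnd2 with 7.01 and 4.92 and Ccnd1 with 6.21, which encode the cyclins that start the cell cycle. Circadian genes gave 2 of 24 (8.33%), the repressors Bhlhe41 (6.43) and Bhlhe40 (4.17). Immune genes gave 1 of 22 (4.55%), Gata3, the factor of type-2 lymphocytes, with 5.54.

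In the metabolic lists the counts were small, with 1 or 2 genes where there were any, beside 1.48% of all protein-coding genes. Nuclear receptors and their cofactors gave 2 of 63 (3.17%). Pparg, the receptor of fat storage, had a member with 7.09 that was 9405 bp beyond its end. Ppara, the receptor of fatty acid burning, had 4 members upstream, with 5.88, 5.48, 4.34 and 3.49 at 32518, 9847, 34249 and 63778 bp. Those at 32518 and 34249 bp had the lncRNA gene Lncppara near them, but over 1 kb away. The member at 9847 bp was inside or within 1 kb of a gene of another type. Lipid and sterol genes gave 2 of 45 (4.44%): Scd1, which desaturates fatty acids, with 6.55, and the cholesterol exporter Abca1, with a weak member of 2.74 at 110743 bp, 499 bp before the start of the lncRNA gene Mexis. Autophagy and lysosome genes gave 1 of 63 (1.59%), the transcription factor Mitf with 6.77. The lists of bile acid genes (27 matched), enterocyte genes (29), secretory cell genes (29), smooth muscle and stromal genes (20), hepatocyte genes (20), insulin and mTOR signalling (30), ribosomal proteins (65) and unfolded protein response (30) had 0 genes nearest to a member. With 1.48% of all protein-coding genes nearest to a member, a count of 0 in 20 to 65 genes says little about a list. The median flanking space of the lists in this paragraph ran from 18.2 kb (ribosomal proteins) to 75.7 kb (insulin and mTOR signalling). In all genes it was 38.9 kb, and its part in the counts was not tested. A peak list holds no expression, so the labelled tissue was not checked against its marker genes, and the source cell type of any peak was not measured.

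Most members stood alone. With summits at most 10 kb apart counted together, 309 were single, and 73 (19.1%) fell into 30 pairs and a single group of 13. With summits at most 5 kb apart, 47 members were grouped. Paired members had a median enrichment value of 5.17. The group of 13 covered 27424 bp on the X chromosome, with summits from 169992704 to 170020128, past the end of Mid1 and around Erdr1, which RefSeq lists as a transcribed pseudogene. This stretch lies at the boundary of the pseudoautosomal region, where X and Y pair. Its members had low enrichment values (3.09 to 6.22, median 4.15) with high −log10 p (14.9 to 50.6, median 32.5). At a −log10 p of at least 25, such a combination was rare in the rest of the list. Of the 16 members with a −log10 p of at least 25, 10 had an enrichment value below the list median of 5.65, and 8 of these were in the X group. Of 170 other peaks at that −log10 p, 6 were below it. The remaining 2 members of this kind were a pair at the lncRNA gene 2700054A10Rik on chromosome 17, 163486 and 165372 bp from Tcte2, with −log10 p of 56.5 and 60.5 and enrichment values of 5.5 and 3.91. The limit of 25 was reached by 9 of the 13 X members, and no count was made below it. Below it, the 3 members on the Y chromosome, described further on, also had low enrichment values. Their −log10 p lay above the member median of 14.2. The causes of this combination were not tested.

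**Figure D4:**
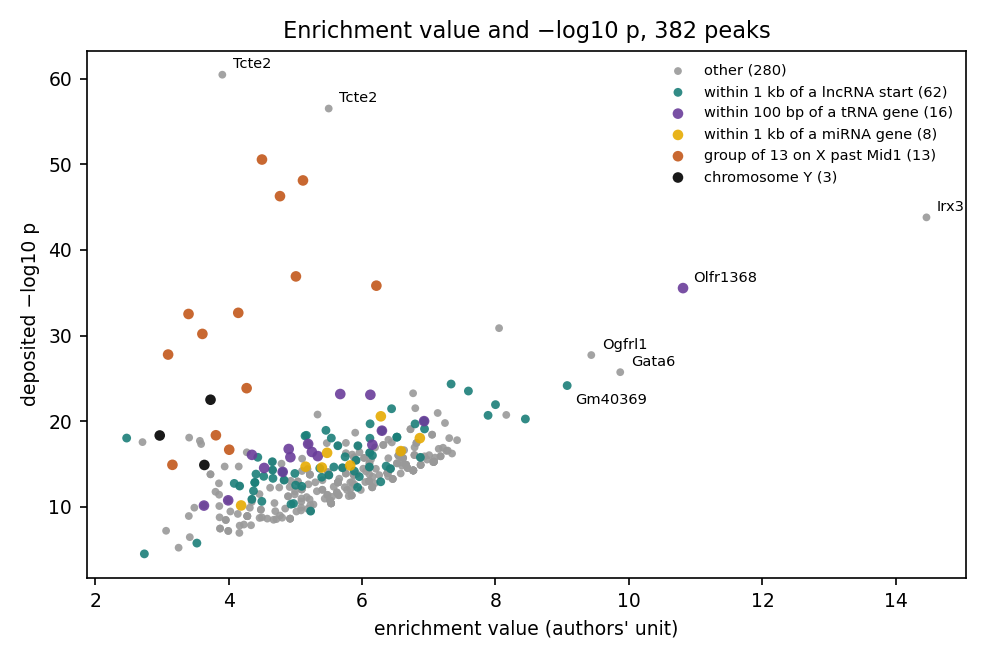
Deposited −log10 p against enrichment value (authors' unit) for the 382 members, coloured by kind (each point is 1 peak, the number of peaks of each kind stands in the key, and members near both an lncRNA start and a tRNA gene are shown as tRNA). Most members follow a single rising band, while most of the X group and the pair near Tcte2 sit above it, at −log10 p up to 60.5.

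The share of peaks outside protein-coding genes differed between chromosomes. On autosomes it was 365 of 5735 (6.36%, interval 5.75 to 7.03). The X chromosome had 14 of 36 (38.9%, interval 23.1 to 56.5), which fell to 1 of 23 (4.35%, interval 0.110 to 21.9) without the group of 13. On the Y chromosome it was 3 of 4, all near Gm52481 and with enrichment values of 3.73, 3.64 and 2.97. Their deposited −log10 p was 22.5, 14.9 and 18.3, in the same order. Chromosome 12 had 27 of 225 (12%, interval 8.06 to 17), chromosome 17 35 of 319 (11%, interval 7.76 to 14.9) and chromosome 6 25 of 247 (10.1%, interval 6.66 to 14.6). The lowest shares were 9 of 295 (3.05%, interval 1.4 to 5.71) on chromosome 10 and 10 of 305 (3.28%, interval 1.58 to 5.95) on chromosome 9.

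**Figure D5:**
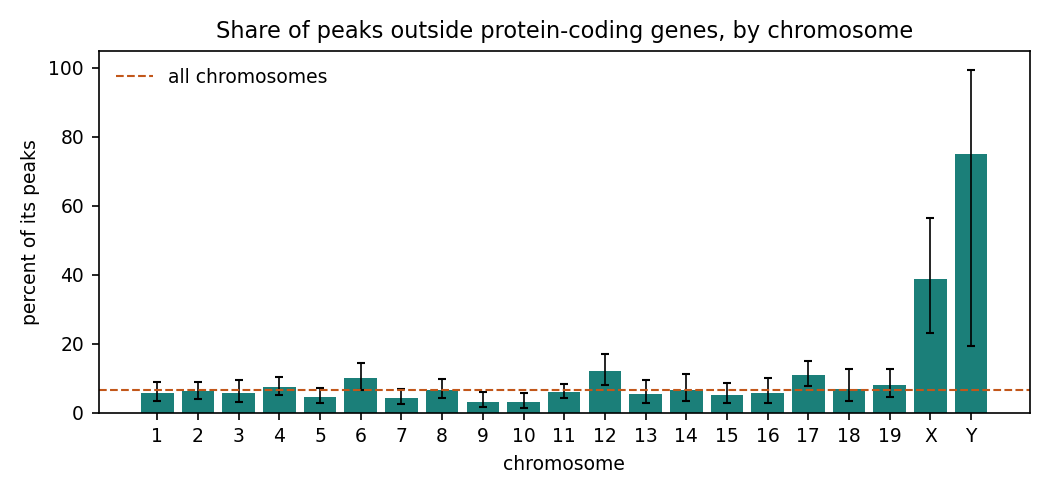
Percent of the wild-type peaks of each chromosome that lay outside protein-coding genes, with 95% exact binomial intervals (counting error only) as error bars and the share over all chromosomes, 6.61%, as a dashed line. X (38.9%) and Y (75%) stand above the autosomes, which run from 3.05% to 12%.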

How the data were processed

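SHP ChIP-seq peak lists of 2 genotypes were used, with no reads and no input signal. Per the submitters' processing notes, CASAVA 1.4, BWA and the build mm10 were used. The sources used here do not name the peak caller or say whether sets were pooled before calling. The deposited files are narrowPeak tables of 10 columns. Their deposited score column, the signal in column 7 (called the enrichment value, its scale not stated) and the −log10 p and q are the authors' own values per peak, and they served only to describe and filter peaks within the wild-type list.

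Summits were placed on RefSeq GRCm38.p6 gene spans (49943 genes, 21887 protein-coding) with Python 3.11.15, pandas 2.3.3, numpy 2.4.6 and scipy 1.17.1. Of the 323 nearest genes, 244 had a strand through their promoter window. No windows of chromosome 18 were used. Medians, quartiles and exact binomial intervals were computed, and the code was tested on simulated data. A motif search in the member peaks had been planned and was not run, since it needs the genome sequence. Members named were the 20 highest by enrichment value, the 5 widest, the 10 farthest and those at tRNA, microRNA, snoRNA and small nuclear RNA genes. Also named were the 15 highest at lncRNA genes, 5 at pseudogenes and those shared with the knockout. Up to 3 per gene list, the 3 largest groups, and 5 on each side of the 1 kb limit were named too. Where a list had more than 3 members, the others are also named, outside this rule and after their values were seen. The members, lists and rules were chosen with earlier results of these data known.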

Additional observations from a re-analysis of the deposited data

How the results depend on the processing

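The share of peaks outside protein-coding genes followed the definition. It was 7.65% with a limit of 500 bp, 4.81% with 5 kb, 3.74% with 10 kb, 7.74% with protein-coding models named Gm or Rik left out and 5.39% among peaks whose −log10 p reached the median of the list. The share of members at genes of another type was 37.4% when the summit had to be inside the gene, 58.6% within 5 kb and 44.2% without pseudogenes. The median enrichment value was 6.32 among members with such a −log10 p, beside 6.35 in the other peaks so filtered. The share of members whose nearest gene also had a peak at an end was 59.9% within 5 kb of an end, which counts 104 members for their own gene. Members in groups numbered 47 with summits at most 5 kb apart. Without the group of 13 on the X chromosome, an alternative chosen after seeing the data, the median width was 715 bp, the median enrichment value 5.65 and the share with a peak at a gene end 32.8%.

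No paired analysis was possible because each genotype had 1 list and no test was made. Unknown depth, the authors' filters and the single list per genotype limit every value. A peak shows no effect on a gene, and the 382 peaks are not replicates.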
